A study of Mus musculus with 6 samples.

Results

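The genes described here are 9 genes by which pancreatic duct epithelium is commonly recognised: Spp1, Krt19, Krt7, Krt8, Krt18, Sox9, Tff2, Cftr and Muc1. The rule takes them by name and uses no measured level, but they were chosen with earlier results of these data known. All 9 were found among the 19342 genes of the count table. Reads were counted in bulk islets of Langerhans from FXR+/+ and FXR-/- mice, in a study that asked how loss of the bile acid receptor FXR alters islet transcription. Each genotype had 3 libraries, named female 1, male 1 and male 2, all from mice aged 3 months. FXR+/+ is the wild type. FXR-/- mice lack FXR, which is encoded by Nr1h4, and were obtained from another laboratory on the C57Bl/6 background. No other allele, diet or agent is given for either genotype, and both went through the same isolation from pancreas with collagenase P. No promoter or cell type that would limit the loss of FXR is given, and the sources do not say if mice were pooled for a library. The p-values therefore measure only the spread between these libraries.

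Ducts carry the digestive enzymes of acinar cells to the gut and add a bicarbonate-rich fluid. Their cells are a simple epithelium whose cytoskeleton pairs acidic type I keratins (Krt18, Krt19) with basic type II keratins (Krt7, Krt8), and Krt8 and Krt18 are also made by acinar cells. SOX9 is a transcription factor of duct cells and of pancreatic progenitors, CFTR is the chloride and bicarbonate channel of the duct cell surface, MUC1 is a mucin anchored in that surface, TFF2 is a secreted trefoil peptide, and osteopontin, the product of Spp1, is a secreted phosphoprotein that binds integrins and CD44. FXR is a nuclear receptor that binds DNA with its partner RXR, classically at an inverted repeat of AGGTCA-like sequences with 1 base between them. Islets prepared by collagenase digestion carry some exocrine tissue, and in bulk RNA a gain or loss of cells of a type cannot be told apart from more or less RNA per cell.

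RefSeq promoter windows of 250 bases before the annotated start, in GRCm38.p6, were matched for 6 of the 9 genes (7 windows, since Spp1 has 2 starts). Shown here are the windows of Spp1, the gene with the largest fitted difference, and of Krt8 and Krt18, which are the only matched members with the hexamer AGGTCA on either strand. All are written 5′ to 3′ on the strand of the gene, and capitals mark AGGTCA or TATAAA.
Spp1, chr5:104434861-104435110, plus strand: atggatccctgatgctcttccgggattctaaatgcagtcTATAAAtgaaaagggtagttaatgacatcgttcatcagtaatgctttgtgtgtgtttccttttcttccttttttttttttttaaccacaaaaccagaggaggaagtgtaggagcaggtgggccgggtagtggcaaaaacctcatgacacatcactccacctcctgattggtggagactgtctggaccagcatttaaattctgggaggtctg
Krt8, chr15:102004343-102004592, minus strand: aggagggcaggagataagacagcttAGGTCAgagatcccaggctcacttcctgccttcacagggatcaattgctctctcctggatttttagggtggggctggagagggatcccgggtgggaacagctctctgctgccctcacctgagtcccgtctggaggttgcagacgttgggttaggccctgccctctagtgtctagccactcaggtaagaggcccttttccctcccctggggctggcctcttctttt
Krt18, chr15:102027966-102028215, plus strand: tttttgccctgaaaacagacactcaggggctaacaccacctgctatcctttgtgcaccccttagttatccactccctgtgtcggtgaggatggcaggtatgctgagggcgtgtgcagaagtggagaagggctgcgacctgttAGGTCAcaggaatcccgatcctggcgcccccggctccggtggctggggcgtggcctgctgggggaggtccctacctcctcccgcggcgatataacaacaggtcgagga
AGGTCA began 225 bases before the start of Krt8 and 108 bases before that of Krt18, and it occurs on either strand in 14.0% of 32851 windows of this length. The full inverted repeat (AGGTCA, any 1 base, and the reverse complement of AGGTCA) was in none of the 7 windows and in 2 of the 32851. TATAAA began 211 bases before the first start of Spp1, was also present before Muc1, and occurs in 12.4% of all windows. These are matches of letters only and say nothing of binding. Krt8 and Krt18 lie on chromosome 15 in opposite orientation, with starts 23873 bases apart.

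The libraries held 20629306 to 30139235 counts on genes. Nr1h4 measured 13.3 ± 1.03 CPM (counts scaled to library size, mean ± SD, n = 3) in the wild type and 6.37 ± 1.09 in the knockout, with no overlap between the genotypes, so reads on the targeted gene were lower but not absent. By edgeR's quasi-likelihood test its log2 fold change was −1.07 (SE 0.160) with an adjusted p of 0.217. Adjusted p-values here are those of Benjamini and Hochberg over the 14619 genes with enough counts to test. The summed counts of 25 acinar genes, mostly digestive enzymes, took 5.23% to 15.2% of a library, and this share was highest in the male 1 library of each genotype. At an adjusted p under 0.05 edgeR called 0 of all genes (0%), with a lowest adjusted p of 0.129. None of the ductal genes passed either, so the differences below are described as values.

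All 9 genes were counted in every library, but they differed widely in level. Per kilobase of annotated exon, the order in FXR+/+ islets was Tff2 (291 ± 185 CPM per kb), Krt18 (78.7 ± 16.3), Krt8 (72.7 ± 19.2), Krt7 (51.9 ± 3.21), Spp1 (10.3 ± 3.54), Muc1 (7.39 ± 5.54), Krt19 (2.20 ± 0.651), Sox9 (0.819 ± 0.433) and Cftr (0.0468 ± 0.00551), each as mean ± SD over 3 libraries. Krt18 and Krt8 lay within 1 SD of each other, and so did Spp1 and Muc1. The genes that define ducts most narrowly, Krt19, Sox9 and Cftr, were the 3 lowest. In FXR-/- islets the order was the same, with Spp1 at 21.9 ± 2.22 CPM per kb and Muc1 at 9.23 ± 2.03, so that these neighbours no longer lay within their SDs. The summed level of the 9 genes ran from 544 to 893 CPM in FXR+/+ and from 568 to 1057 CPM in FXR-/- libraries, and most of that sum was Tff2, Krt7, Krt8 and Krt18.

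Of the 9 members, 8 had enough counts to test and Cftr did not. An unadjusted p under 0.05 was reached by 3 of the 8 (Spp1, Sox9 and Krt19), all higher in FXR-/- islets. Over all genes tested, 6.18% reached it higher and 4.15% lower in FXR-/- islets. The median log2 fold change of the 8 was 0.43, beside 0.0084 over all genes. The members were chosen with earlier results of these data known, so neither comparison is a test of the set. Separate ranges in the genotypes were seen for 2 members, Spp1 with FXR-/- higher and Krt7 with FXR-/- lower, and over all genes 8.02% and 7.37% did so in these directions.

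**Figure D1:**
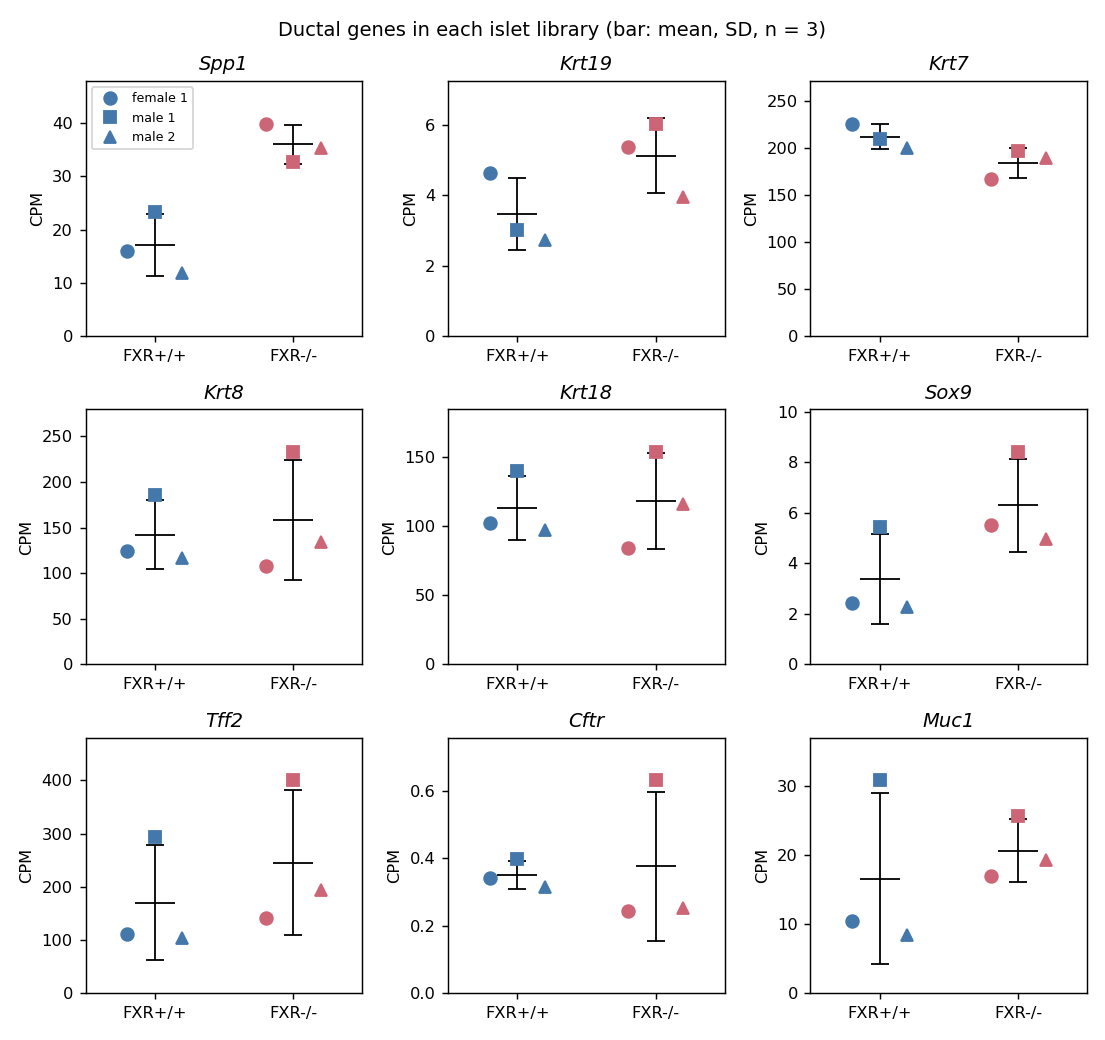
Level of each ductal gene in the 6 islet libraries, in CPM (vertical axis, from 0) for each genotype (horizontal axis); symbols mark female 1, male 1 and male 2, and bars give the mean and SD of 3 libraries. The 3 FXR-/- libraries sit between 32.7 and 39.9 CPM for Spp1, above all FXR+/+ libraries, while the squares (male 1) are the highest in both genotypes for Tff2, Krt8, Krt18, Sox9 and Muc1.

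Spp1 (gene 20750, chr5:104435111-104441053, plus strand) encodes osteopontin. Its level was 15.9 CPM in female 1, 23.3 in male 1 and 11.8 in male 2 of FXR+/+, against 39.9, 32.7 and 35.4 CPM in the same-numbered FXR-/- libraries. Every FXR-/- library was above every FXR+/+ library, and the gap was narrowest between the male 1 libraries. The means were 17.0 ± 5.83 and 36.0 ± 3.65 CPM (SD, n = 3), on 1220 and 2450 counts in all. Within a numbered pair the FXR-/- level was 2.51 times the FXR+/+ level in female 1, 1.40 times in male 1 and 2.99 times in male 2. The log2 fold change was 1.08 (SE 0.233), with an unadjusted p of 0.00200 and an adjusted p of 0.286 by edgeR, which placed Spp1 102nd of all genes tested. The exact two-sided permutation test gave 0.1, the smallest p that 3 against 3 libraries allow.

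The call on Spp1 depended on the model. DESeq2, which called 1.29% of 13342 genes, gave an adjusted p of 0.00143 for a log2 fold change of 1.08, and Spp1 was the single member it called. With the replicate number as a block, which called 0.157% of genes, edgeR gave 1.13 (SE 0.186) with an adjusted p of 0.0660. With a term for acinar RNA in each library, which called 0.0479% of genes, the difference was 0.90 (SE 0.167) with an adjusted p of 0.165. When both male 1 libraries, the richest in acinar RNA, were left out, the log2 fold change of Spp1 was 1.45 with an adjusted p of 0.00156, in a fit that called 1.59% of genes. That fit was chosen on seeing the data and has 1 residual degree of freedom. Without male 1 of FXR+/+ alone the log2 fold change of Spp1 was 1.43 with an adjusted p of 0.0834. In all these fits Spp1 was higher in FXR-/- islets. Unadjusted p-values under 0.05 were reached by 5 of the 8 members with the block (16.1% of all genes) and by 3 with the acinar term (8.16%).

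In the exon table, which held 40.7% of the gene's 3670 counts, Spp1 was counted almost wholly on its last exon (exon 7, chr5:104440229-104441053), with 141, 202 and 155 exon counts in female 1, male 1 and male 2 of FXR+/+ and 379, 220 and 339 in those of FXR-/-. Exon 7 is 825 bases long, while the other listed exons of Spp1 are 42 to 282 bases. The rule of exon counting is not given, and its part in this share was not tested. On exon 7 all FXR-/- values were above all FXR+/+ values, as for the whole gene. This exon, the only one of the 6 listed with enough counts to test, had a log2 fold change of 0.99 (SE 0.241) and an adjusted p of 0.389 over 26998 exons, of which 0.0185% were called. With the replicate number as a block it was 1.04 with an adjusted p of 0.0375, where 0.485% of exons were called, and without male 1 of FXR+/+ it was 1.38 with an adjusted p of 0.0448, where 0.0353% were called. Exon 6 was too sparse to test, with 3, 4 and 4 counts in the wild type and 8, 11 and 10 in the knockout. A gene annotated by GENCODE on the same strand, Gm42793, overlaps Spp1, and reads within that overlap cannot be assigned to either.

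Osteopontin is also made by cells other than duct cells, and lists of markers of other cell types were measured beside it. The summed level of 8 macrophage genes was 111 to 150 CPM in FXR+/+ and 148 to 175 CPM in FXR-/- libraries, so that the ranges touched, and 4 of the 8 had an unadjusted p under 0.05, all higher (6.18% of all genes). For a list of lipid-associated macrophage genes it was 98.0 to 204 against 208 to 250 CPM, of which Lpl gave most (122 ± 45.4 against 192 ± 25.1 CPM). Of the 7 of its 8 genes in the table, Cd9 was at 22.5 ± 6.63 and 18.9 ± 1.04 CPM, Fabp5 at 4.09 ± 1.68 and 5.09 ± 0.749, and Lgals3 at 1.95 ± 0.0429 and 3.12 ± 1.52. Ctsk was at 1.10 ± 0.570 and 1.27 ± 0.253 CPM, Trem2 at 0.775 ± 0.206 and 0.954 ± 0.127, and Gpnmb at 0.283 ± 0.150 and 0.235 ± 0.0221. The 6 endothelial genes summed to 388 to 485 CPM in FXR+/+ and 505 to 787 CPM in FXR-/- libraries, and all 6 had an unadjusted p under 0.05, all higher (6.18% of all genes). For 8 genes of stellate cells and fibroblasts the sums were 47.6 to 163 and 131 to 155 CPM, the highest being FXR+/+ male 1, and none of the 8 had such a p. By edgeR none of these genes passed the adjusted threshold, while DESeq2, which also called Spp1, called Lpl (adjusted p = 0.00863) and the endothelial genes Plvap (0.00829) and Emcn (0.00938), all higher. Their part in the Spp1 difference was not tested.

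Across the 6 libraries the genes whose log2 CPM most resembled that of Spp1, by Pearson's r among all 14619 genes tested, were 4732491K20Rik (r = 0.998), Kcnj6 (0.993), Svep1 (0.992), Pnoc (0.991) and Tmc6 (0.991). Among the ductal genes r with Spp1 was 0.857 for Sox9, 0.700 for Muc1, 0.636 for Krt19, 0.551 for Tff2, 0.242 for Krt8, 0.173 for Krt18 and −0.689 for Krt7. Sox9 stood 548th of all genes in this order. These r describe 6 points that include the genotype difference itself, and they share the library preparation and depth.

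Sox9 (gene 20682, chr11:112782210-112787757, plus strand), the duct and progenitor transcription factor, showed the next largest difference at a low level. It measured 2.43, 5.45 and 2.27 CPM in female 1, male 1 and male 2 of FXR+/+ and 5.51, 8.41 and 4.96 CPM in those of FXR-/-. The FXR-/- library was the higher of each numbered pair, by 2.27, 1.54 and 2.18 times, but the FXR+/+ male 1 library lay above the FXR-/- male 2 library, so the genotypes overlapped. The means were 3.38 ± 1.79 and 6.30 ± 1.85 CPM (SD, n = 3). The log2 fold change was 0.93 (SE 0.351), with an unadjusted p of 0.0311 and an adjusted p of 0.457 by edgeR. Sox9 tracked acinar RNA in part, and with a term for it the difference was 0.54 (SE 0.194, adjusted p = 0.516). Without both male 1 libraries it was 1.15 with an adjusted p of 0.0294. That fit was chosen on seeing the data, has 1 residual degree of freedom and called 1.59% of all genes.

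Krt19 (gene 16669, chr11:100140810-100145926, minus strand), a type I keratin and the classical keratin of duct cells, was counted 61 to 133 times per library. Its levels were 4.65, 3.02 and 2.75 CPM in female 1, male 1 and male 2 of FXR+/+ and 5.39, 6.05 and 3.96 CPM in those of FXR-/-. Each FXR-/- library exceeded its numbered partner, while FXR+/+ female 1 lay above FXR-/- male 2. The means were 3.47 ± 1.03 and 5.13 ± 1.07 CPM, with a log2 fold change of 0.59 (SE 0.229) and an adjusted p of 0.461 by edgeR.

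Krt7 (gene 110310, chr15:101412403-101427806, plus strand), a type II keratin of ducts, was the only tested member with a lower fitted level in FXR-/- islets. It measured 226, 210 and 200 CPM in female 1, male 1 and male 2 of FXR+/+ and 167, 197 and 189 CPM in those of FXR-/-. The genotypes did not overlap, but the lowest FXR+/+ and the highest FXR-/- library lay within a few CPM of each other. The means were 212 ± 13.1 and 184 ± 15.5 CPM, with a log2 fold change of −0.21 (SE 0.0971), an unadjusted p of 0.0701 and an adjusted p of 0.491 by edgeR. With a term for acinar RNA the value was −0.24. Krt7 was thus opposite in direction to the type I keratin Krt19, although neither passed the test. In FXR+/+ islets Krt19 was at 3.47 ± 1.03 CPM, far below Krt7. Which cells gave the Krt7 reads was not tested, so its value cannot be read as that of duct cells. GENCODE annotates an antisense gene, Gm671, over part of Krt7, and whether the counting used strand is not given.

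Krt8 (gene 16691, chr15:101996711-102004342, minus strand) and Krt18 (gene 16668, chr15:102028216-102032026, plus strand) form the filament pair of simple epithelia. Krt8 was at 124, 186 and 117 CPM in female 1, male 1 and male 2 of FXR+/+ and at 108, 233 and 135 CPM in those of FXR-/-. Krt18 was at 102, 140 and 97.3 CPM and at 83.9, 154 and 116 CPM in the same order. In both genes the male 1 library was the highest of each genotype and FXR-/- female 1 was the lowest of all. The log2 fold changes were 0.12 (SE 0.244, adjusted p = 0.855) for Krt8 and 0.03 (SE 0.176, adjusted p = 0.956) for Krt18 by edgeR. With a term for acinar RNA both turned, to −0.18 and −0.17. GENCODE annotates a lincRNA, Gm36026, over part of Krt8 on the other strand, and a processed pseudogene, Krt8-ps, so how reads were split between them and Krt8 is uncertain.

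Tff2 (gene 21785, chr17:31141062-31144282, minus strand), the trefoil peptide, was the most variable of the abundant members. It measured 112, 294 and 103 CPM in female 1, male 1 and male 2 of FXR+/+ and 141, 400 and 195 CPM in those of FXR-/-. Its order over the 6 libraries was that of the acinar sum, from FXR-/- male 1 down to FXR+/+ male 2. The log2 fold change was 0.50 (SE 0.391) with an adjusted p of 0.624 by edgeR. With a replicate block it was 0.56 (SE 0.119, adjusted p = 0.0989), and with a term for acinar RNA the value was 0.03 (SE 0.106, adjusted p = 0.960). In the exon table Tff2 had 145 counts in all against 27548 in the gene table, or 0.526%, the lowest share of any member (the others had 15.7% to 83.3%), so its exons could not serve as a second measure.

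Muc1 (gene 17829, chr3:89229056-89233381, plus strand), the membrane mucin, followed a like order. It was at 10.4, 30.9 and 8.46 CPM in female 1, male 1 and male 2 of FXR+/+ and at 17.0, 25.8 and 19.3 CPM in those of FXR-/-. FXR+/+ male 1 was the highest of all and the other FXR+/+ libraries the lowest, so that FXR-/- exceeded FXR+/+ in 2 of 3 numbered pairs (1.63, 0.835 and 2.28 times). The means were 16.6 ± 12.4 and 20.7 ± 4.56 CPM, with a log2 fold change of 0.37 (SE 0.414, adjusted p = 0.735) by edgeR. With a term for acinar RNA it was −0.0056, and without both male 1 libraries it was 0.94 with an adjusted p of 0.0182. The latter fit was chosen on seeing the data, left out the pair with the lower FXR-/- level, has 1 residual degree of freedom and called 1.59% of all genes.

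Cftr (gene 12638, chr6:18170687-18322770, plus strand), the duct chloride channel, was barely counted, with 8, 8 and 10 reads in the wild type and 6, 12 and 6 in the knockout. The totals of 26 and 24 counts did not allow a difference to be detected at this depth. An antisense gene, Gm15592, and a processed pseudogene, Gm15595, overlap Cftr.

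**Figure D2:**
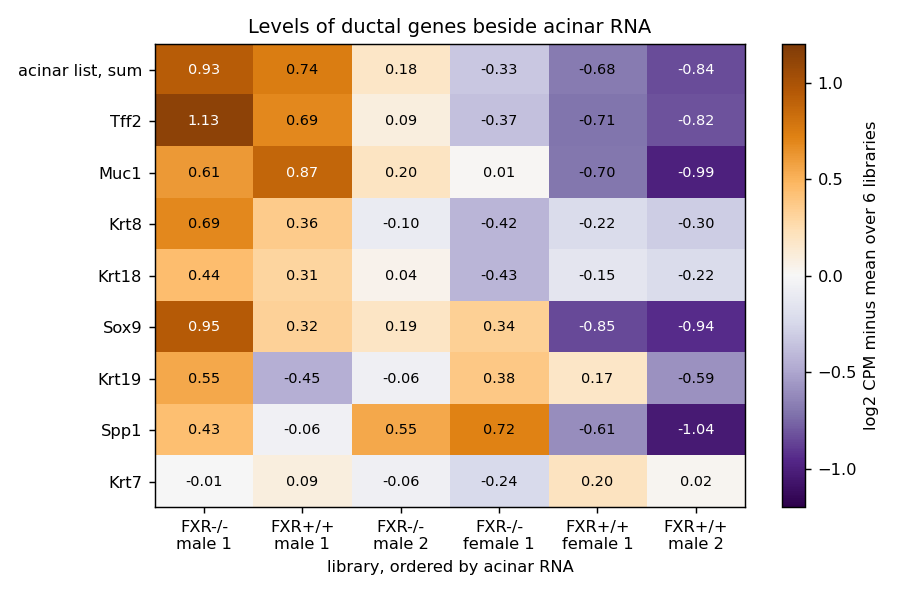
Level of 8 ductal genes and of the summed 25 acinar genes (rows) in each library (columns, ordered by acinar RNA), as log2 CPM minus the mean over the 6 libraries (colour and printed value). Tff2 falls from 1.13 to −0.82 in the order of the acinar sum. Spp1 is highest in FXR-/- female 1 (0.72), a library below the mean in acinar RNA (−0.33). Within FXR+/+ Spp1 falls in the order of the acinar sum, and within FXR-/- in the reverse order.

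The 2 male 1 libraries thus carried the most acinar RNA and the highest Tff2, Krt8, Krt18, Sox9 and Muc1 of their genotypes. Spp1, Krt19 and Krt7 did not have this pattern in both genotypes. For Spp1, male 1 was the highest of the FXR+/+ libraries and the lowest of the FXR-/- libraries. Acinar RNA summed to 49766 to 149268 CPM in FXR+/+ and to 70846 to 170277 CPM in FXR-/- libraries, the FXR-/- library being the higher in every numbered pair. The part of exocrine tissue in the differences of Tff2, Muc1 and Sox9 was not tested beyond the term for it.

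**Figure D3:**
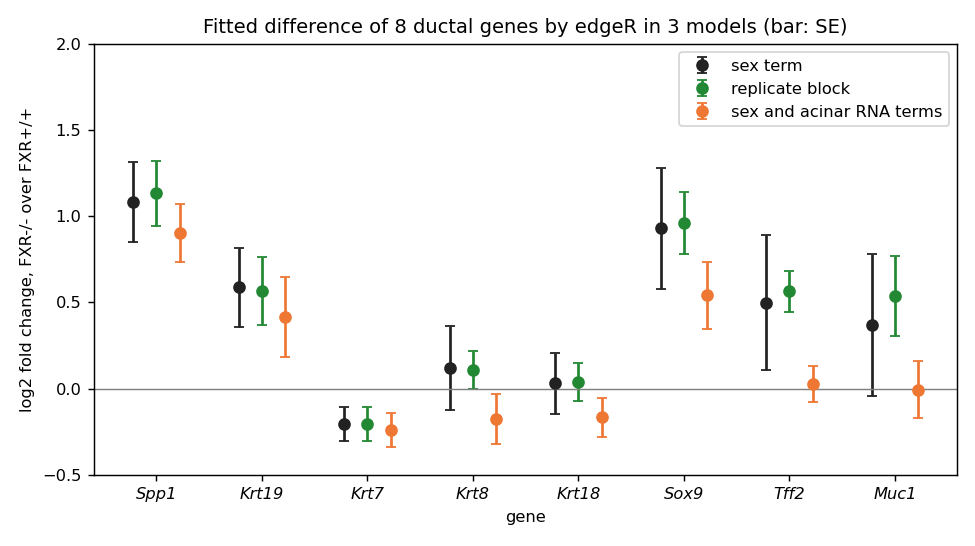
Fitted log2 fold change of FXR-/- over FXR+/+ (vertical axis) for the 8 tested ductal genes (horizontal axis) by edgeR with a sex term, with the replicate number as a block, and with terms for sex and acinar RNA; bars are SE. Spp1 stays between 0.90 and 1.13 in the 3 models, while Tff2 goes from 0.50 to 0.03 and Muc1 from 0.37 to −0.0056 with the acinar term.

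A difference of the genotype effect between the sexes was not detected for any member. The interaction of sex and genotype gave unadjusted p-values from 0.0951 (Krt7) to 0.792 (Tff2), and 0 of 8 members and 0 of all genes passed after adjustment by edgeR (217 genes, or 1.48%, had an unadjusted p under 0.05). With 1 female library per genotype, only large differences could have been found.

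Krt8 and Krt18 shared another feature. The share of their exon counts that fell on inner exons, those other than the first and last, was low in FXR+/+ male 2. For Krt8 it was 14.9%, 20.5% and 3.70% in female 1, male 1 and male 2 of FXR+/+ (34 of 919 counts in male 2) and 8.01%, 14.7% and 13.8% in those of FXR-/-. For Krt18 it was 17.9%, 26.1% and 3.63% (23 of 633 in male 2), and then 12.3%, 19.97% and 18.4%. For Krt7 it stayed between 11.8% and 18.4%, and the median over 2776 genes was 17.2% in FXR+/+ male 2. By the spread between libraries Krt18 ranked 1st and Krt8 5th of these genes, and Krt7 912th. These genes had at least 4 exons listed and 200 exon counts in every library, with a mean share of at least 5%. The pattern was looked for after the values were seen, follows no genotype, and its cause was not tested. FXR+/+ male 2 was also the library with the lowest acinar RNA and the highest Krt20, Muc13 and Tff3 counts, and their part in the pattern was not tested.

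**Figure D4:**
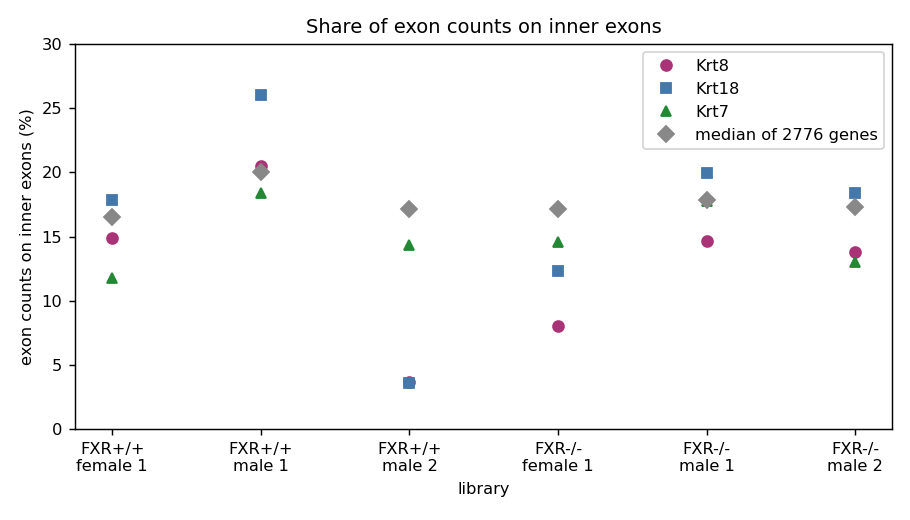
Share of exon counts on inner exons (percent, vertical axis) in each library (horizontal axis) for Krt8, Krt18, Krt7 and the median of 2776 genes. Krt8 and Krt18 drop to 3.70% and 3.63% in FXR+/+ male 2, where Krt7 and the median gene do not.

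Beyond the 9 members, 86 further genes were listed, namely 4 lists of duct or mucous epithelium, 1 of other keratins and their linkers and 1 of osteopontin receptors and processing, of which 81 were in the table and 69 had enough counts to test. By edgeR 0 of the 69 passed the adjusted threshold. An unadjusted p under 0.05 was reached by 11 higher in FXR-/- islets (6.18% of all genes) and by 3 lower (4.15%), and their median log2 fold change was 0.11. Without overlap between the genotypes were 11 higher (8.02% of all genes) and 2 lower (7.37%). DESeq2, which called 1.29% of all genes, called 2 of the 69, Prom1 and Dcdc2a.

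Among 12 duct transcription factors and Notch genes, 1 had an unadjusted p under 0.05 (10.3% of all genes). It was Notch1, a receptor that restrains endocrine differentiation of progenitors, at 70.8 ± 4.85 CPM in the wild type and 84.9 ± 6.31 CPM in the knockout (log2 fold change 0.26, SE 0.0922). The highest of the list, the factor Foxa2, was at 97.4 ± 10.5 and 102 ± 2.56 CPM. Of 11 tested genes of ion and water transport, 2 had such a p (10.3% of all genes). Slc4a2, a chloride and bicarbonate exchanger, was at 58.0 ± 4.82 and 71.2 ± 4.38 CPM (0.30, SE 0.0931), and Ano1, a calcium-activated chloride channel, at 8.20 ± 1.61 and 11.3 ± 1.49 CPM (0.47, SE 0.154). The most abundant of them, the adenylyl cyclase Adcy6, was at 142 ± 3.78 and 142 ± 11.9 CPM.

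Of 18 tested genes of the duct cell surface, 4 were higher (6.18% of all genes) and 1 lower (4.15%) at an unadjusted p under 0.05. Prom1, a protein of membrane protrusions, was at 70.6 ± 3.55 and 92.4 ± 9.39 CPM (log2 fold change 0.38, SE 0.0858, adjusted p = 0.309 by edgeR and 0.0318 by DESeq2). Dcdc2a, a doublecortin-domain protein of cilia, was at 21.8 ± 8.07 and 34.6 ± 2.94 CPM (0.72, SE 0.190, adjusted p = 0.369 by edgeR and 0.0411 by DESeq2). Anxa2, a membrane-binding annexin, was at 12.3 ± 0.910 and 17.0 ± 1.79 CPM (0.47, SE 0.125). In each of these 3 the genotypes did not overlap (8.02% of all genes in this direction). The 1 lower gene, Pigr, was at 33.1 ± 2.96 and 21.2 ± 7.58 CPM (−0.65, SE 0.230). Its genotypes did not overlap either (7.37% of all genes in this direction). Dmbt1, a secreted scavenger protein, was the highest of the list at 1389 ± 855 and 1774 ± 633 CPM, with overlap. Like Tff2 it had the library order of the acinar sum. Its log2 fold change was 0.36 (SE 0.373), and −0.03 (SE 0.116) with a term for acinar RNA.

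None of the 4 tested genes among other mucins and trefoil factors had an unadjusted p under 0.05, and the highest, the membrane mucin Muc4, was at 67.0 ± 11.9 and 68.5 ± 5.67 CPM. FXR+/+ male 2 stood apart in 3 rarely counted genes of this list and the keratin list. Tff3 had 58 counts there and 3 to 16 in the other libraries, the mucin Muc13 had 69 against 3 to 14, and the keratin Krt20 had 102 against 0 to 5. In the mucin Muc6 it was FXR-/- male 1 that stood apart, with 164 counts against 15 to 46 in the other libraries. Its log2 fold change of 1.43 (SE 0.819), the largest of the list, rests on that library. Of 10 other keratins and keratin linkers tested, 2 were higher (6.18% of all genes) and 1 lower (4.15%) at an unadjusted p under 0.05. Jup, the junction protein plakoglobin, was at 85.1 ± 2.55 and 105.6 ± 11.1 CPM (log2 fold change 0.31), Krt10 at 7.54 ± 0.747 and 10.1 ± 0.624 CPM (0.43), and Krt80 at 7.21 ± 1.76 and 5.57 ± 1.25 CPM (−0.37). Desmoplakin (Dsp), the most abundant, was at 128 ± 13.6 and 116 ± 3.94 CPM.

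Of 14 tested genes that receive or process osteopontin, 2 were higher (6.18% of all genes) and 1 lower (4.15%) at an unadjusted p under 0.05. Itga5, an integrin subunit, was at 4.43 ± 1.26 and 6.55 ± 0.801 CPM (log2 fold change 0.59, SE 0.196). Tgm2, a transglutaminase that crosslinks osteopontin, was at 8.43 ± 5.01 and 15.9 ± 2.52 CPM (0.94, SE 0.384), with overlap. Itgb8 was at 12.7 ± 0.943 and 10.4 ± 1.46 CPM (−0.29, SE 0.122). The shared integrin subunit Itgb1 was the most abundant, at 188 ± 11.1 and 187 ± 5.82 CPM. Of the 4 genes that neighbour Spp1 in its family of mineral-binding phosphoproteins, Dmp1 alone was in the table, with too few counts to test.

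**Figure D5:**
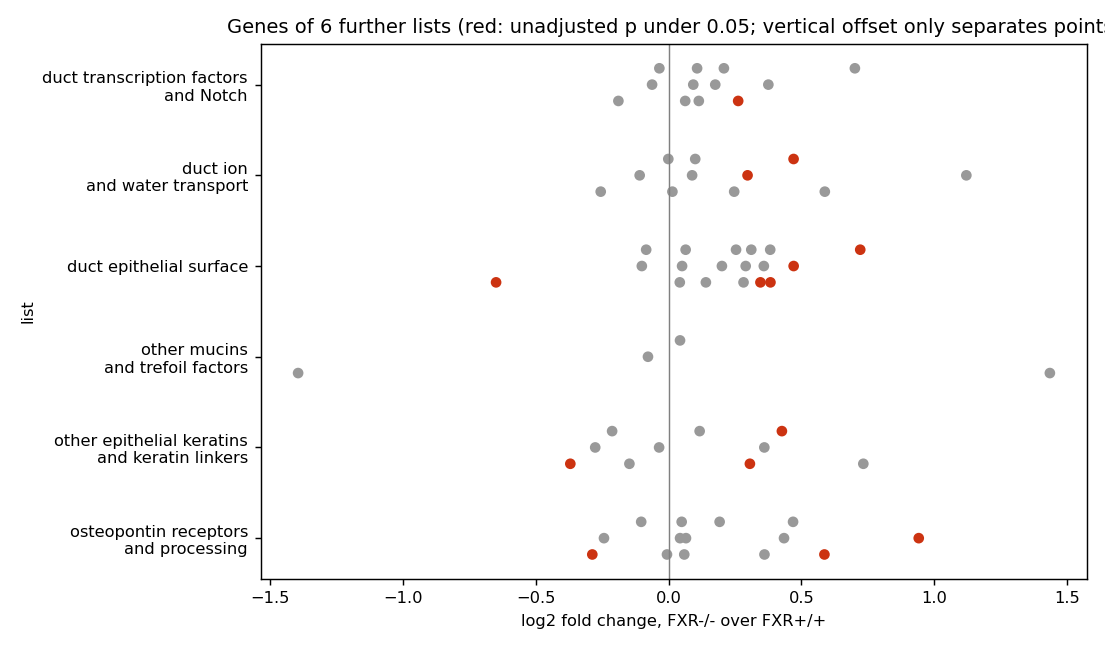
Fitted log2 fold change of FXR-/- over FXR+/+ (horizontal axis) for the 69 tested genes of 6 further lists (vertical axis); each point is a gene, red where its unadjusted p was under 0.05. Of these, 11 red points lie above 0 and 3 below, and none passed after adjustment by edgeR.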

How the data were processed

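Gene and exon counts of 6 islet libraries were analysed again. The authors deposited counts per gene and per exon as whole numbers without normalization. Per the labels, mRNA was enriched with oligo(dT) and HISAT was used (version not given), and the counting tool and its use of strand are not given in the sources used here. Exon counts sum to 32.3% to 36.6% of gene counts, for a reason the sources do not give. The authors' own comparison of the genotypes, with fold changes and p-values, was not used. The members and gene lists were chosen with earlier results of these data known.

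The test was edgeR 4.0.16 in R 4.3.3 (filterByExpr with minimum count 10 and minimum total 15, TMM, glmQLFit and glmQLFTest, terms for sex and genotype) on all 6 libraries, with Benjamini-Hochberg adjustment and a threshold of 0.05. The code was tested on simulated data. CPM are counts scaled by TMM library size. SE came from the F statistic. Levels per kilobase used GENCODE vM21 exons, and positions and promoter windows came from RefSeq. For permutation, 0.01 was added to CPM before taking log2. Alternatives were DESeq2 1.42.0, other scalings and filters, males alone, no sex term, an acinar term, a replicate block and each library left out. A fit without both male 1 libraries was chosen on seeing the data.

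Replicate numbers come from the labels. The deviations of same-numbered libraries from their genotype means had correlations of 0.359 for female 1, 0.351 for male 1 and 0.307 for male 2. Those of other libraries of different genotype were at 0.00887 or below. Deviations cancel out within a genotype, so this contrast is partly built in, and the female 1 libraries also share sex. It does not show what the numbers mark, and the block and the pairwise ratios assume that they pair the libraries. No 2 libraries of the same genotype agreed within sampling noise.

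Genes named are all 9 members, at most 3 genes per further list with the lowest unadjusted p under 0.05, the most abundant gene of each list, and the 5 genes most like Spp1. Genes of other cell type lists, and Pigr, Tff3, Muc6, Muc13 and Krt20, were named after their values were seen.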

Additional observations from a re-analysis of the deposited data

How the results depend on the processing

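The number of the 8 tested ductal genes past the adjusted threshold was 0 by edgeR, 1 by DESeq2 (Spp1, log2 fold change 1.08) and 3 without both male 1 libraries (Spp1 at 1.45, Sox9 and Muc1), a fit with 1 residual degree of freedom. For the 69 further listed genes the counts were 0, 2 and 4. Over all genes tested these fits called 0%, 1.29% and 1.59%. The replicate block gave Spp1 1.13 with an adjusted p of 0.0660 and changed no call among the ductal or further listed genes. The block raised the number of Spp1 exons called from 0 (0.0185% of all exons) to 1 (0.485%). Leaving out each library in turn gave Spp1 0.88 to 1.43, with adjusted p from 0.0834 (without FXR+/+ male 1) to 0.650 (without FXR-/- male 2). These fits called 0 to 1 Spp1 exons, the 1 being without FXR+/+ male 1, where 0.0353% of all exons were called. Because of the sex term, leaving out either female library amounts to the fit of males alone (Spp1 0.96 in each). Those fits are therefore not separate checks. Spp1 kept its direction in all alternatives, from 0.88 to 1.45 with adjusted p from 0.00143 to 0.650.

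The keratin pair and Muc1 changed sign. Leaving out each library in turn gave Krt8 −0.18 to 0.28 and Krt18 −0.15 to 0.19. Krt8 became −0.18 with the acinar term, −0.0052 without both male 1 libraries, −0.094 without FXR+/+ male 2 and −0.18 without FXR-/- male 1. Krt18 became −0.063 with library size alone, −0.022 on summed exon counts, −0.17 with the acinar term, −0.018 without both male 1 libraries, −0.15 without FXR+/+ male 2 and −0.14 without FXR-/- male 1. Muc1 became −0.0056 with the acinar term. With 1 library left out, and no call gained, Tff2 ran from 0.13 (without FXR-/- male 1) to 1.00 (without FXR+/+ male 1). Muc1 ran from 0.0033 (without FXR+/+ male 2) to 1.10 (without FXR+/+ male 1), and Sox9 from 0.63 to 1.39. Krt19 ran from 0.35 (without FXR-/- male 1) to 0.79, and Krt7 from −0.26 to −0.088 (without either female library). The cause was not tested. Depth limits Cftr, and with 3 libraries per genotype a p that misses the threshold does not show equal levels.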

Other observations

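The endocrine cells that make up most of an islet gave far more RNA than ducts in all 6 libraries. The summed level of 8 beta cell genes was 194305 to 230458 CPM in FXR+/+ and 186746 to 271578 CPM in FXR-/- libraries, and that of 7 alpha, delta and PP cell genes was 26926 to 45104 and 34712 to 44885 CPM. The ranges overlapped between the genotypes in both lists. Of the tested members, 2 of 8 beta cell genes and 0 of 7 alpha, delta and PP cell genes had an unadjusted p under 0.05 (10.3% of all genes), with 0 past the adjusted threshold by edgeR. DESeq2 called 1 of them, the beta cell transcription factor Mafa, at 318 ± 5.01 and 473 ± 24.5 CPM (adjusted p = 1.65e-10).

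Mesothelium, the sheet of cells on the surface of the pancreas, also makes keratins. Of its 7 listed genes 6 were in the table, and they summed to 65.2 to 117 CPM in FXR+/+ and 43.8 to 71.7 CPM in FXR-/- libraries. Nearly all of this was Msln (87.9 ± 26.3 and 56.0 ± 14.5 CPM), so the sum is in effect that of 1 gene. Msln alone was tested, at a log2 fold change of −0.65 (adjusted p = 0.334 by edgeR and 0.0136 by DESeq2). B cell and lymph node genes summed to 20.5 to 47.4 and 15.4 to 25.2 CPM, most of it Cd79a (24.9 ± 4.73 and 17.1 ± 5.43 CPM).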
